A study of Mus musculus with 4 samples.

Results

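The profile of H4K20me3, histone H4 trimethylated at lysine 20, was set against the pooled profiles of REST, Ring1b and MCAF1 in mouse embryonic stem cells. It was chosen by the antibody named in the labels and is 1 of the 4 libraries of the study. The cells were of the V6.5 line, a C57BL/6-129 hybrid, which is normally kept on a layer of irradiated mouse fibroblasts. Cells for H4K20me3, Ring1b and MCAF1 had been taken off that layer for 2 passages and cells for REST for 1 passage; no treatment or genetic change was listed for any of them. Chromatin was sheared to a mean of 500 bp and the recovered DNA was amplified over 18 PCR cycles. The gel slice ran from 150 to 350 bp for H4K20me3 and REST and from 150 to 300 bp for Ring1b and MCAF1. Every antibody had a single library, sequenced on a flow cell of its own, so antibody and sequencing run cannot be told apart, all intervals are 95% intervals for counting error alone, and no difference has a replicate check. An input library was not used here, and the other 3 libraries served as the comparison.

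H4K20me3 is laid down by the SUV420H enzymes, mostly on nucleosomes that already carry methylated H3K9. It is best known from constitutive heterochromatin at centromeres and telomeres, and in embryonic stem cells also from endogenous retroviruses such as intracisternal A particles. REST binds DNA and represses neuronal genes, and Ring1b is the subunit of Polycomb repressive complex 1 that ubiquitinates histone H2A. MCAF1, also named ATF7IP, is a partner of SETDB1, an enzyme that methylates H3K9.

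Chromosomes 1 to 19 held 7655438 distinct H4K20me3 reads with a single location, against 3063633 for REST, 3023138 for Ring1b and 10818054 for MCAF1. A 10-kb bin thus held on average 31.1 H4K20me3 reads and a 500-bp bin 1.55. The 3 factor libraries were each scaled to the H4K20me3 total and averaged, and the ratio is H4K20me3 reads over that mean. A bin was called higher when the ratio was at least 2 and its interval lay above 1, and lower when the ratio was at most the inverse of 2 and its interval lay below 1. Bins with at least 30 reads (10 kb) or 10 reads (500 bp) over the 4 libraries were measured. The mapping seed was 36 bases for H4K20me3 and MCAF1 but 26 bases for REST and Ring1b, so ratios to MCAF1 alone are given beside the main results; the part of the seed in the ratios to REST and Ring1b was not tested. Gene annotation of the mm8 assembly was not used here, and bins are given by position on mm8 only.

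In most measured 10-kb bins of the autosomes the ratio of H4K20me3 to the pooled factors lay within the 2-fold limits. The median is largely set by the scaling to equal totals and is no measure of how alike the profiles are. The median ratio over 214156 measured 10-kb bins was 0.974, and 9 in 10 bins lay between 0.429 and 1.82. H4K20me3 was higher in 6747 of these bins (3.15%) and lower in 13566 (6.33%). The surplus of lower bins was not kept at equal depth: with all libraries thinned to 3023138 reads there were 6310 higher and 6261 lower bins. It was small without MCAF1 in the pool, with 13102 higher and 13615 lower bins. The surplus was kept without REST (7176 and 9498), without Ring1b (4935 and 15890), with unscaled factor reads summed (4421 and 12899) and against MCAF1 alone (4140 and 11692). The higher bins held 4.94% of H4K20me3 reads, against 1.74% of REST, 1.34% of Ring1b and 2.48% of MCAF1 reads. Their H4K20me3 density was 1.80 times its genome mean, while REST was at 0.635, Ring1b at 0.491 and MCAF1 at 0.905 times theirs. These values come from the reads that chose the bins and describe them only.

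The excess in the called bins was largest over Ring1b and smallest over MCAF1. Over the higher bins together the ratio was 2.66 to the pool, 3.67 to Ring1b, 2.84 to REST and 1.99 to MCAF1. The bins were called on these same reads against the mean of the 3 factors, so these ratios and the shares that follow are partly fixed by the call. H4K20me3 exceeded each of the 3 factors in 6720 of the 6747 bins (99.6%), and in 25.2% of all measured bins. In the higher bins it was at least 2-fold above Ring1b in 94.6%, above REST in 83.2% and above MCAF1 in 41.7%. Over all measured bins these shares were 16.4%, 8.33% and 2.09%. It was at least 2-fold above all 3 in 2188 higher bins (32.4%), and in 1.03% of measured bins. Against MCAF1 alone, 4140 bins were higher (1.93%), and 2751 bins were called both ways, which is 40.8% of the calls against the pool and 66.4% of those against MCAF1. The bins nearest the 2-fold limit on the inside had ratios of 2.00005 to 2.00015, and those nearest on the outside 1.99986 to 1.99996.

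Individual bins reached far higher ratios. The bin with the highest lower bound, on chromosome 17 from 6590001 to 6600000, held 890 H4K20me3, 28 REST, 13 Ring1b and 195 MCAF1 reads. In RPM, with each library scaled to the same autosomal total, this was 116.3 for H4K20me3 against 9.14, 4.30 and 18.0, a ratio of 11.1 (9.33 to 13.2). All 3 factors were low there, and the bins before and after had ratios of 4.46 and 2.96. A bin on chromosome 9 from 121170001 to 121180000 held 332, 7, 5 and 77 reads in the same order, a ratio of 11.8 (8.83 to 15.7). Here the following bin was back at 1.37. On chromosome 14, the bin from 13140001 to 13150000 held 578, 25, 26 and 115 reads, a ratio of 8.27 (6.74 to 10.2), and was isolated, with 1.52 before it and 1.03 after it.

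Sparser bins also entered the 10 highest. One on chromosome 17 from 33830001 to 33840000 held 60 H4K20me3 reads, 1 REST, 1 Ring1b and 7 MCAF1 reads, a ratio of 18.0 with a wide interval of 7.26 to 50.2. One on chromosome 14 from 104850001 to 104860000 held 30 H4K20me3 reads and 4 MCAF1 reads, and none of the other two. Over the 10 bins the ratio to MCAF1, the factor with the same seed length, ran from 4.02 to 12.1.

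The longest unbroken stretch of higher bins was 100 kb, on chromosome 10 from 82790001 to 82890000. It held 1970 H4K20me3, 98 REST, 53 Ring1b and 814 MCAF1 reads, a ratio of 6.19 (5.66 to 6.76) to the pool and 3.42 to MCAF1. Each of its 10 bins lay between 3.65 and 9.06, and 82 of its 500-bp bins were higher on their own. The bin before the stretch was at 0.864 and carried 33 Ring1b reads, so the left border fell within 10 kb. On the right, a bin with 12 H4K20me3 reads, too few to be measured, separated it from further higher bins at 8.91 and 3.48. Reads with 2 locations, which did not enter the ratio, numbered 310, 27, 15 and 137 in the same stretch.

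**Figure D1:**
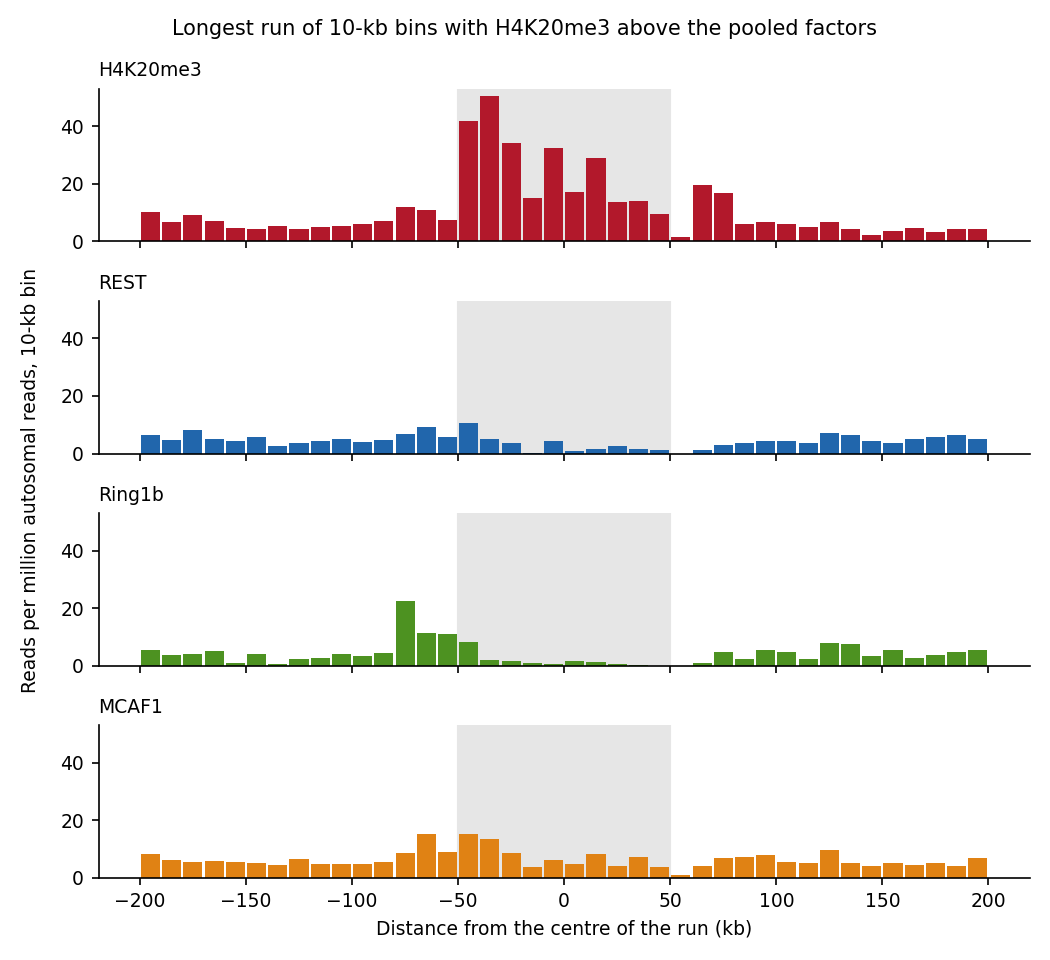
RPM over autosomal reads in 10-kb bins (y) against distance from the centre of the longest run in kb (x), 1 panel per library on a common scale; grey marks the 100-kb run. H4K20me3 reaches 50.4 RPM inside the run, where MCAF1 stays at or below 15.3, and returns to the level of the flanking bins within 100 kb of the centre on both sides.

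Other long runs differed in how dense their reads were. On chromosome 4 from 154970001 to 155030000, 60 kb held 1781, 97, 85 and 577 reads, a ratio of 6.17 (5.59 to 6.82), 4.36 to MCAF1, with 59 higher 500-bp bins. On chromosome 14 from 23210001 to 23270000, a run of the same length held only 182, 25, 18 and 150 reads, a ratio of 2.55 (2.02 to 3.21), with 1 higher 500-bp bin. The first was a dense patch. In the second, 182 H4K20me3 reads over 6 bins were near the genome mean of 31.1 per 10-kb bin. REST, Ring1b and MCAF1 were below their means there, and the ratio to MCAF1 was 1.71. At that density few 500-bp bins could reach 10 reads, so how evenly the excess lay was not determined. On chromosome 15 from 87090001 to 87150000 the ratio was 3.13 (2.67 to 3.67), 2.60 to MCAF1, and in a run on chromosome 18 it was 4.42 (3.78 to 5.17), 3.26 to MCAF1.

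Runs of this kind were rare. The 6747 higher 10-kb bins formed 5674 runs, of which 4821 were single bins, 692 were pairs, 161 had 3 or more bins and 14 had 5 or more. The share of higher bins that adjoined another was 28.5% for H4K20me3. Called the same way against their own other 3 libraries, Ring1b was higher in 4174 bins (1.95%) with 26.6% adjoining, REST in 8698 (4.06%) with 14.4%, and MCAF1 in 3389 (1.58%) with 4.54%. The longest runs were 100 kb for H4K20me3, 140 kb for Ring1b, 60 kb for REST and 20 kb for MCAF1. The libraries differ in depth. With all of them thinned to 3023138 reads and called again, a check chosen after the data were seen, the adjoining share was 21.9% for H4K20me3 (6310 higher bins, 4.07%), 27.6% for Ring1b (3970, 2.56%), 7.72% for REST (4609, 2.97%) and 6.48% for MCAF1 (4787, 3.09%). H4K20me3 and Ring1b bins had larger adjoining shares than REST and MCAF1 bins at both depths; neighbouring bins are not independent, and the shares carry no interval.

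At 500 bp the excess was steeper. H4K20me3 was higher in 33049 of 683544 measured bins (4.83%), with a ratio of 4.88 to the pool, 6.17 to REST, 5.68 to Ring1b and 3.61 to MCAF1. It was at least 2-fold above all 3 factors in 26345 of them (79.7%), a share partly fixed by the call, and in 7.82% of measured bins. Lower bins numbered 26120 (3.82%), and the balance turned with the scaling, to 22112 higher and 35570 lower with the median log2 ratio set to 0 and to 7572 and 11877 with thinned libraries. A higher bin held a median of 10 H4K20me3 and 4 MCAF1 reads, and REST had no read in 54.9% of them and Ring1b none in 59.2%. Only 13.9% of 500-bp bins were measured, many of them through the library in which they were high, so this count describes the called bins and not the genome. Against MCAF1 alone 41871 bins were higher (6.13%), and 18199 were called both ways, 55.1% of the calls against the pool and 43.5% of those against MCAF1.

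The highest 500-bp bin lay on chromosome 13 from 114687501 to 114688000, with 76 H4K20me3 and 8 MCAF1 reads and no REST or Ring1b read. Its ratio was 40.3 (13.95 to 96.6), and the bins on either side were at 8.36 and 10.3. A bin on chromosome 8 from 18836001 to 18836500 held 52 H4K20me3 and 3 MCAF1 reads, and one on chromosome 4 from 98341001 to 98341500 held 42 and 2. In every one of the 10 highest 500-bp bins both neighbouring bins were also above the pool, with ratios from 3.05 to 19.4.

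Most higher 500-bp bins had no higher neighbour. Only 13.9% of 500-bp bins were measured, so a run also ended where the next bin had too few reads. Run lengths thus do not give the extent of the excess. They formed 28635 runs, 25801 of them single bins, 344 of 2 kb or more and 16 of 5 kb or more, and the longest was 17.5 kb. The adjoining share was 21.9%. Ring1b, higher in 33752 bins (4.94%), had 59.3% adjoining. REST, higher in 10371 (1.52%), had 8.78%, and MCAF1, higher in 13030 (1.91%), had 2.03%. With all libraries thinned to 3023138 reads, the adjoining share was 19.4% for H4K20me3 (7572 higher bins, 5.6%), 62.1% for Ring1b (28618, 21.2%), 11.5% for REST (5360, 3.97%) and 1.204% for MCAF1 (1661, 1.23%). The order of the libraries was the same at both depths; the shares are over bins that were measured partly through the library called.

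Reads of the strand that was not used for the choice gave the size of the excess without the gain that comes from choosing high counts. Bins were chosen on plus-strand reads and read on minus-strand reads. The strands share the antibody, the library and the mappability of the sequence, so only counting error is removed. In 8052 10-kb bins chosen at a ratio of 2.64, the minus strand gave 1.90 (1.89 to 1.91), with 1.92 to REST, 2.40 to Ring1b and 1.56 to MCAF1. The minus strand was above the pool in 88.8% of these bins and at least 2-fold above it in 40.1%. In 14083 500-bp bins chosen at 7.78, it gave 2.85 (2.82 to 2.89), with 3.06, 2.71 and 2.82 to REST, Ring1b and MCAF1. At 500 bp the excess was thus nearly equal over the 3 factors, whereas at 10 kb it was smallest over MCAF1.

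Around the chosen 500-bp bins the H4K20me3 excess declined slowly with distance. On the minus strand the ratio was 1.99 at 0.5 kb, 1.81 at 1 kb, 1.66 at 2 kb, 1.42 at 5 kb, 1.28 (1.27 to 1.30) at 10 kb and 1.16 (1.15 to 1.18) at 20 kb. Beyond this it levelled off, with 1.11 (1.10 to 1.13) at 100 kb and 1.07 (1.06 to 1.09) at 1000 kb. The ratio to MCAF1 followed, from 2.82 at the bin to 1.36 at 5 kb and 1.14 at 20 kb. REST, treated alike, stood at 4.92 in its chosen bins but at 1.09 (1.07 to 1.12) by 1 kb and at 0.999 (0.973 to 1.03) by 2 kb. MCAF1 fell from 2.03 to 1.08 (1.06 to 1.11) at 0.5 kb. Ring1b was still at 7.61 at 2 kb and 4.09 at 10 kb, and came to 1.04 (1.03 to 1.06) at 200 kb. At 2 to 10 kb H4K20me3 was therefore above REST and MCAF1 and below Ring1b, with intervals that did not overlap. A bin that lay between chosen bins could be counted for both, so the intervals away from the chosen bin are too narrow. The profiles were not made at equal depth.

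**Figure D2:**
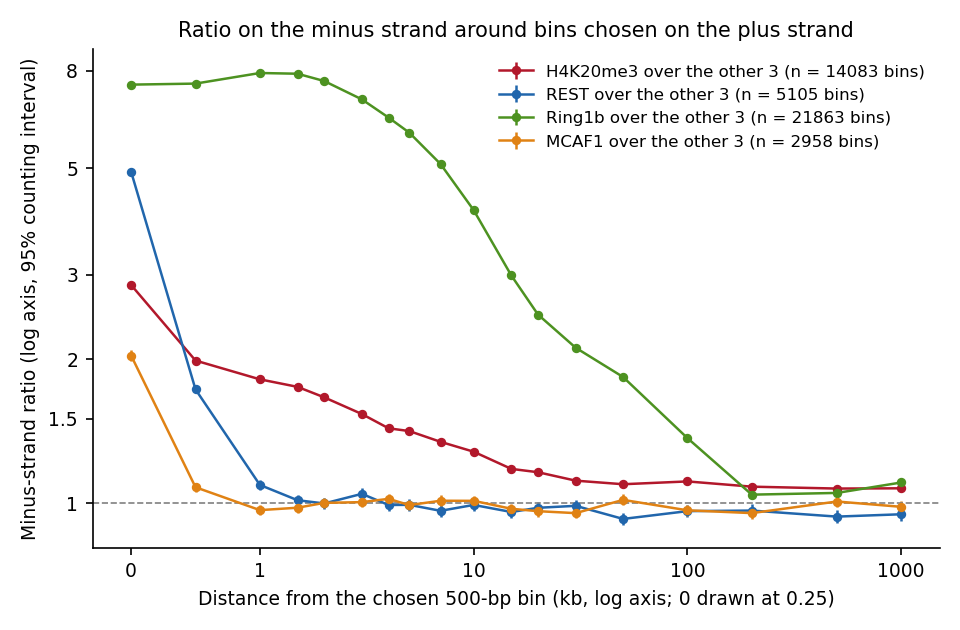
Minus-strand ratio of each library to its other 3 (y, log axis, with 95% counting intervals) against distance in kb from 500-bp bins chosen on plus-strand reads (x, log axis, with 0 drawn at 0.25). H4K20me3 falls from 2.85 at the bin to 1.66 at 2 kb and 1.16 at 20 kb, REST and MCAF1 are near 1 by 2 kb, and Ring1b is at 4.09 at 10 kb. Bins between chosen bins can be counted for both, which makes the intervals away from the chosen bin too narrow.

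The variation of the ratio with bin length was also taken over all measured bins, without a choice of high bins. For H4K20me3 the standard deviation of the log2 ratio shared by both strands was 0.58 in 500-bp bins, 0.48 at 1 and at 2 kb, 0.50 at 5 kb and 0.48 at 10 kb. It was 0.40 at 50 kb, 0.37 at 100 kb and 0.28 at 1000 kb. Ring1b was at 0.40 at 2 kb, 0.43 at 10 kb and 0.31 at 1000 kb, below H4K20me3 up to 20 kb and above it from 50 kb, unlike the order around chosen bins. Averaging from 10 kb to 1000 kb left 32.7% of the shared variance of H4K20me3, 49.4% of that of REST, 53.3% of that of Ring1b and 23.4% of that of MCAF1. Against MCAF1 alone the H4K20me3 value was 0.40 at 10 kb and 0.21 at 1000 kb, leaving 26.5%. The bins up to 2 kb pass a minimum of 10 reads in all 4 libraries together, which keeps the denser bins, so the values below 5 kb are not over the same sequence as those above. A pseudocount of 1 read weighs more on REST and Ring1b in short bins, because these libraries have fewer reads. The order of the libraries by length and the shares left at 1000 kb were not checked at equal depth.

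**Figure D3:**
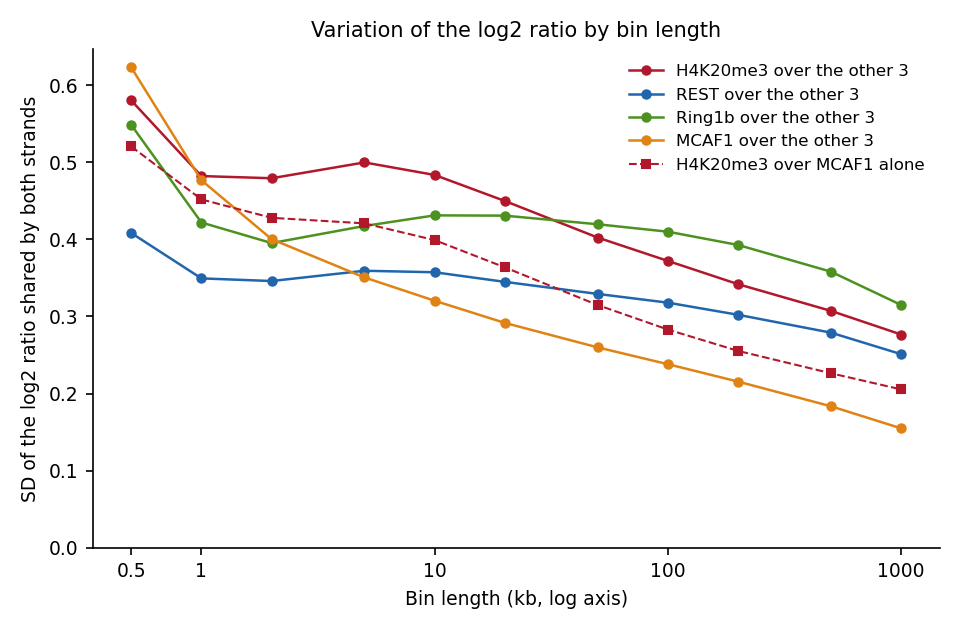
Standard deviation of the log2 ratio shared by both strands (y) against bin length in kb (x, log axis), for each library over its other 3 and, dashed, for H4K20me3 over MCAF1 alone. H4K20me3 has the highest value of the 4 libraries from 1 to 20 kb, 0.48 at 10 kb, and Ring1b from 50 to 1000 kb. The libraries differ in depth, and this order was not checked at equal depth.

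As a description over 10-kb bins, which are not replicates and share depth and base composition with their neighbours, the correlation between the plus-strand log2 ratio of a bin and the minus-strand log2 ratio of another was 0.474 for the same bin (214156 bins), 0.272 for the next bin and 0.213 at 20 kb. It was 0.149 at 100 kb (198912 pairs), 0.0887 at 1000 kb and 0.0235 at 10000 kb. Against MCAF1 alone it was 0.376, 0.197, 0.157, 0.106, 0.0622 and 0.0175 at those distances. The values for REST were 0.273 in the same bin and 0.0523 at 100 kb. Ring1b had 0.317 and 0.0231, and MCAF1 0.338 and 0.0230. Depth differed between the libraries, and the H4K20me3 value at 100 kb fell to 0.0728 when all were thinned to equal reads. No factor value was computed at equal depth, so how the libraries compare by this measure was not tested.

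The 2 lengths were partly nested. Of the higher 500-bp bins 8845 (26.8%) lay inside higher 10-kb bins, which held 3.56% of all measured 500-bp bins; both calls use the same reads. Conversely, 2768 higher 10-kb bins (41.0%) held no higher 500-bp bin, 1932 (28.6%) held 1 and 1083 (16.1%) held 3 or more. Of the excess reads of higher 10-kb bins, 45.6% lay in higher 500-bp bins. With those removed the 10-kb bins had a ratio of 2.05, and 1.57 to MCAF1. That value is a description, since the bins were chosen at 2-fold on the same reads, and 500-bp bins with under 10 reads could not be called.

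H4K20me3 was also high beside stretches to which no read had a single location. A stretch was a distance of 1 kb or more between consecutive reads of any library, and the flanks were the 500 bp on each side, without the reads that border the stretch. The length classes were set with the data in view, and what sequence lies inside the stretches was not determined. Beside 106649 stretches of 1 to 2 kb the ratio was 0.983 (0.977 to 0.989). It was 1.26 at 2 to 3 kb, 1.48 at 3 to 4 kb and 1.86 (1.81 to 1.92) at 4 to 5 kb, and to MCAF1 1.11, 1.28 and 1.59. The ratio was 2.29 (2.19 to 2.39) beside 1664 stretches of 5 to 5.5 kb, with 2.17 to REST, 3.08 to Ring1b and 1.91 to MCAF1.

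The relation to length was not smooth. Beside stretches of 6.5 to 7 kb, of which there were 3013, the ratio was 1.35 (1.31 to 1.38), and beside 996 of 7 to 7.25 kb it was 2.34 (2.25 to 2.43), with 1.99 to MCAF1. At 7.5 to 7.75 kb it was 1.32 (1.22 to 1.43) again. The most frequent lengths above 4 kb, between 6.25 and 6.75 kb, thus had lower ratios than those between 5 and 5.5 kb or between 7 and 7.25 kb, and this order held for REST, Ring1b and MCAF1 taken singly. Beside stretches of 20 to 100 kb the ratio was 0.967 (0.878 to 1.06).

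**Figure D4:**
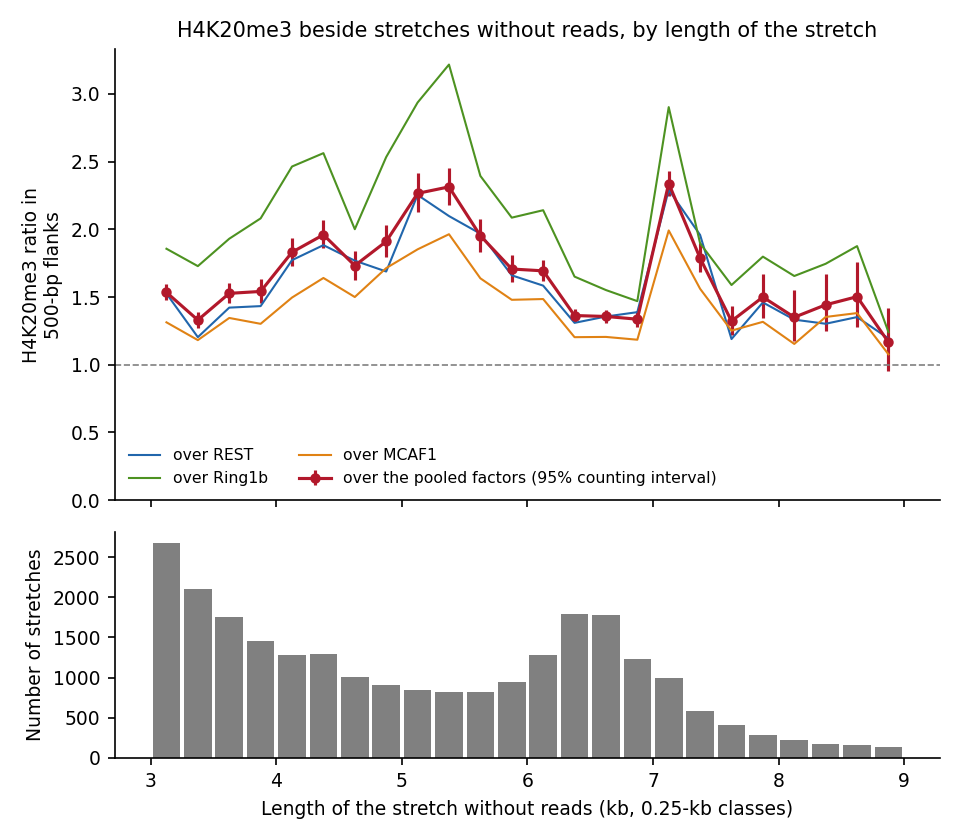
Upper panel, H4K20me3 ratio in the 500-bp flanks (y) by length of the stretch without reads in classes of 0.25 kb (x), over the pooled factors with 95% counting intervals and over each factor; lower panel, number of stretches per class. The ratio is above 2 from 5 to 5.5 kb and at 7 to 7.25 kb, and near 1.35 from 6.25 to 7 kb.

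The excess beside these stretches was short. For lengths of 5 to 5.5 kb the ratio was 2.29 in the first 500 bp, 1.75 in the next, 1.45 from 1 to 2 kb, 1.16 from 2 to 5 kb and 1.03 (1.01 to 1.04) from 5 to 10 kb. For 7 to 7.5 kb it was 2.15, 1.88, 1.46, 1.12 and 1.06. The sides of a stretch went together. Among stretches of 4 to 8 kb, 796 chosen for a high left flank (1000 bp) had a ratio of 3.68 (3.53 to 3.83) in the right flank, against 1.44 (1.40 to 1.48) for 3037 that were measured and not chosen. With the sides exchanged the values were 3.26 (3.14 to 3.40) for 844 and 1.45 (1.41 to 1.49) for 3058. To MCAF1 the right flanks were at 2.87 and 1.28 and the left flanks at 2.66 and 1.30. Among the measured stretches, H4K20me3 was thus high on both sides of the chosen ones. Those not chosen were more numerous and had ratios of 1.44 and 1.45 in the opposite flank. Stretches without a measured flank for the choice entered neither group, so these values do not describe them.

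Edges of such stretches were more frequent in higher bins than in measured bins. An edge of a stretch of 1 kb or more lay in 4480 of the 6747 higher 10-kb bins (66.4%), in 38.7% of measured and in 55.1% of lower bins, and the remaining 2267 higher bins held none. An edge of a stretch of 4 to 8 kb lay in 1710 of the 6747 higher 10-kb bins (25.3%), in 6.31% of measured and in 4.67% of lower bins. Measured 10-kb bins with such an edge were higher in 12.7% of cases and those without in 2.51%. For stretches of 1 kb or more the shares were 5.40% and 1.73%. Of the higher 500-bp bins 8.12% lay within 500 bp of the edge of a stretch of 1 kb or more, against 1.97% of measured ones. Bins at an edge hold less sequence with reads and reach the read minimum more easily where H4K20me3 is high. All of these shares are thus partly fixed by the minimum.

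Reads with 2 locations, left out of the ratio, were read in the bins called from reads with 1. They made up 3.57% of aligned H4K20me3 reads, 3.32% of MCAF1, 6.43% of REST and 5.81% of Ring1b reads, and each counts at both locations. Where both locations fall in the same bin or set of bins, a read enters more than once and the interval is too narrow. In the higher 10-kb bins their ratio was 2.15 (2.12 to 2.17), with 1.53 to MCAF1, in the lower bins 0.476 (0.468 to 0.484), and in measured bins that were neither 0.888 (0.885 to 0.891). In bins not measured by reads with 1 location it was 1.44 (1.43 to 1.45), but 0.982 to MCAF1. In the higher 500-bp bins it was 2.59 (2.53 to 2.65), with 2.30 to MCAF1. The excess of H4K20me3 was therefore present in reads that took no part in the choice, from the same library.

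By these reads alone 8742 10-kb bins were measured, and H4K20me3 was higher in 2355 (26.9%) and lower in 213 (2.44%). Bins pass the read minimum more easily where H4K20me3 is high, so these shares describe the measured bins and not the genome. Against MCAF1 alone H4K20me3 was higher in 793 (9.07%), of which 693 were also higher against the pool, 29.4% of the calls against the pool. Among 4682 measured bins that were neither by reads with 1 location, 1045 (22.3%) were higher, and the median ratio was 1.47. Among the 796 of the measured bins that were also higher by reads with 1 location, 523 (65.7%) were higher. The highest, on chromosome 9 from 12100001 to 12110000, held 70 such H4K20me3 reads, 2 REST, none of Ring1b and 9 MCAF1 reads, a ratio of 22.5 (10.98 to 48.1). Reads with 1 location numbered only 12, 4, 1 and 10 there. On chromosome 3 from 86990001 to 87000000 the reads with 2 locations were 117, 2, 0 and 23, a ratio of 17.6 (10.9 to 28.5), and those with 1 location 65, 19, 16 and 55.

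Bins in which H4K20me3 was lower were split into 2 kinds by a cut at the genome mean of the pool. In 10488 of the 13566 (77.3%) the pool itself was below its genome mean, and H4K20me3 stood at 0.244 times its own mean, with ratios of 0.294 to REST, 0.407 to Ring1b and 0.418 to MCAF1. In the other 3078 the pool was at or above its mean. The densities and ratios of the lower bins come from the reads that called them and describe them only. With the read minimum doubled, 5795 lower bins were left. Among all lower bins, 869 had a Ring1b density of at least 5 times its mean, and in these the ratio was 0.102 to Ring1b but 1.47 to MCAF1 and 0.956 to REST. H4K20me3 density was 3.11 times its mean there and MCAF1 density 2.12. These bins were picked for high Ring1b on the same reads, so their low ratio to Ring1b is partly fixed by that choice. The lowest bin, on chromosome 2 from 74480001 to 74490000, held 84 H4K20me3, 49 REST, 1417 Ring1b and 92 MCAF1 reads, a ratio of 0.0667 (0.0529 to 0.0832) to the pool and 1.29 to MCAF1. All 10 of the lowest bins had a ratio above 1 to MCAF1. Over both kinds, H4K20me3 was at least 2-fold below each of the 3 factors in 5356 bins (39.5%), a share partly fixed by the call. Over all measured bins the share was 2.69%. Against MCAF1 alone 11692 bins were lower (5.46%), and 6753 were called both ways, 49.8% of the calls against the pool and 57.8% of those against MCAF1.

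The 26120 lower 500-bp bins had a ratio of 0.0970 to Ring1b, 0.310 to REST and 0.672 to MCAF1. Against MCAF1 alone 13914 were lower (2.04%), and 5268 were called both ways, 20.2% of the calls against the pool and 37.9% of those against MCAF1. Read on the minus strand, 12789 500-bp bins chosen as lower on the plus strand had 0.240 (0.237 to 0.242) to the pool, but 1.10 to MCAF1. For 9301 10-kb bins the minus-strand ratio was 0.435 (0.432 to 0.438) to the pool and 0.871 to MCAF1.

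The ratio also moved with how densely the factors covered a bin. With the 10-kb bins in 10 classes of nearly equal size by plus-strand pool density, the minus-strand ratio was 1.02 in the sparsest class, 0.890 in class 2, rose to 1.12 in class 8 and was 0.881 in the densest. To Ring1b it was 0.633 in the densest class. To MCAF1 it rose from 0.861 in class 2 to 1.18 in class 10, and to REST it went from 0.790 to 1.02 with a maximum of 1.10 in class 8. Higher bins made up 11.4% of the sparsest class and 0.649% of the densest. Sparse bins reach 30 reads more easily where H4K20me3 is high, and the minimum counts reads of both strands. The share of higher bins and the ratio of 1.02 in the sparsest class are therefore partly fixed by the minimum.

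**Figure D5:**
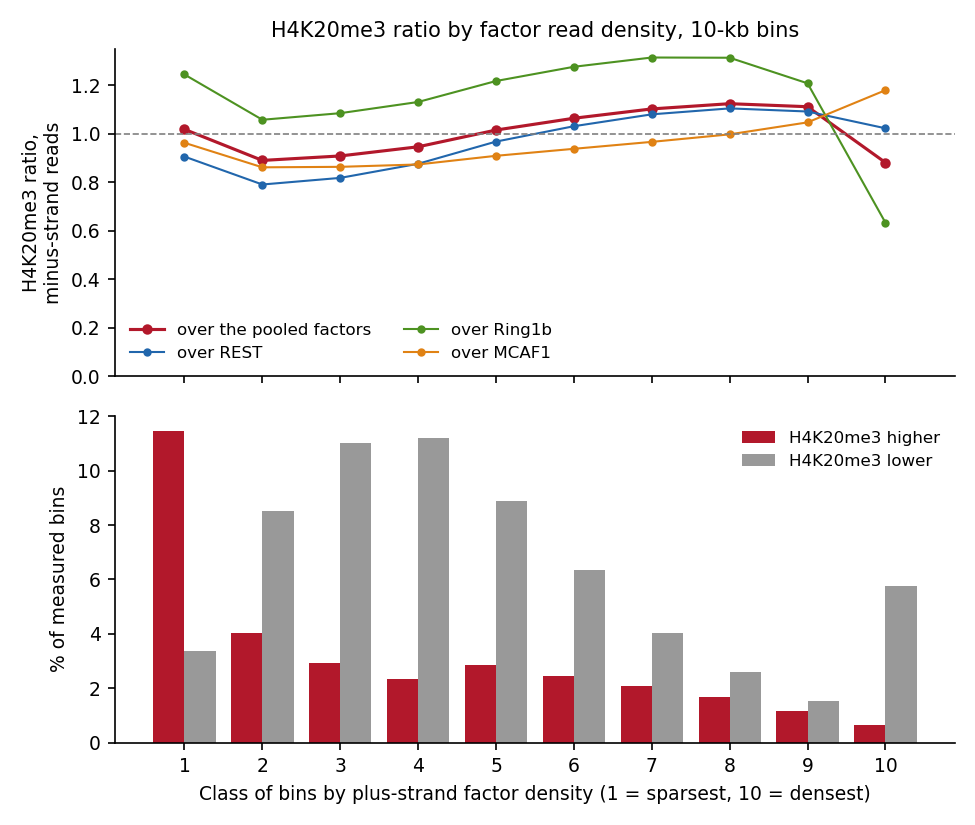
Upper panel, minus-strand ratio of H4K20me3 to the pool and to each factor (y) by class of 10-kb bins in order of plus-strand pool density (x); lower panel, percent of measured bins called higher or lower. The ratio to the pool peaks at 1.12 in class 8 and drops to 0.881 in class 10, where the ratio to Ring1b is 0.633 and that to MCAF1 1.18.

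At the scale of 1 Mb the ratio varied less. Over 2341 bins the ratio had a median of 0.969 and 9 in 10 bins lay between 0.672 and 1.25; it was at least 1.25 in 114 bins and at most 0.8 in 460. As a description over these bins, which share their libraries, depth and base composition, the minus-strand log2 ratio went with the plus-strand pool density, with a Spearman correlation of 0.531 and a Pearson correlation of 0.470. The highest was 1.79 (1.72 to 1.85) on chromosome 15 from 87000001 to 88000000, with 5883 H4K20me3 and 5314 MCAF1 reads and a ratio of 1.56 to MCAF1. The megabase before it was at 1.57 (1.52 to 1.63), and the one on chromosome 10 that holds the longest run was at 1.58 (1.53 to 1.63). The 3 lowest, from 0.368 to 0.397, had ratios of 0.171 to 0.185 to Ring1b and 0.816 to 1.04 to MCAF1. Whole chromosomes ran from 0.942 (chromosome 3) to 1.07 (chromosome 7), and the share of higher bins from 2.07% (chromosome 19) to 4.28% (chromosome 7). On chromosome X, outside the comparison, 176 of 5358 measured 10-kb bins were higher (3.28%) and 561 lower (10.5%).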

How the data were processed

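The authors deposited genome positions of aligned reads, negative on the minus strand, from Bowtie and mm8 per the submitters' processing notes (Bowtie version: not given in the sources used here). No more than 2 locations per read were reported and seeds were 26 or 36 bases, per the file headers. From these, 1 read per position and strand was kept and moved 75 bp in its 3′ direction, and bins were counted from the start of each chromosome. Ratio intervals set H4K20me3 reads against the effective number of pool reads (exact binomial, gamma method for the weighted sum, 95%). Shares are given without intervals. A Clopper-Pearson interval of the adjoining share, which treats neighbouring bins as independent, served to decide which settings are listed as having moved it. Amplified reads are not independent molecules. The log2 ratios used a pseudocount of 1 read. Named bins were the 10 highest by lower bound and 10 lowest by upper bound at most 1 per 1 Mb, the 5 longest runs, the 10 highest 500-bp bins and the 3 nearest the limit on each side; examples are given. The comparison, bins and rules were chosen with earlier results of these data known. Calling was tested on simulated data. Calculations ran in numpy 2.4.6 and scipy 1.17.1 under Python 3.11.15, with figures from matplotlib 3.10.9.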

Additional observations from a re-analysis of the deposited data

Results flagged for a closer look

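Reads outside chromosomes 1 to 19 took no part in the comparison. On chromosome X the ratio of H4K20me3 to the pooled factors was 0.826 (0.821 to 0.832), with 0.777 to REST, 0.834 to Ring1b and 0.872 to MCAF1, from 125044 H4K20me3 reads. The H4K20me3 library held 448 distinct mitochondrial reads, against 2323 for REST, 3907 for Ring1b and 3309 for MCAF1, a ratio of 0.0745 (0.0676 to 0.0820).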

How the results depend on the processing

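No paired analysis was possible because each antibody had 1 library. Each result was recomputed under 15 alternatives and under MCAF1 alone as the pool, which was chosen after the data were seen; the 2 alternatives that change only the call fold do not touch the correlation. Where values moved, the cause was not tested. The 6747 higher 10-kb bins became 13102 without MCAF1 in the pool, 4421 with unscaled factor reads summed, 19519 at a 1.5-fold and 1767 at a 3-fold limit, and 4140 against MCAF1 alone. The 13566 lower ones became 5795 at the doubled read minimum, 4589 at 3-fold and 6261 with every library thinned to 3023138 reads. The 33049 higher 500-bp bins became 21852 without REST, 10060 at the doubled minimum and 7572 thinned. The 26120 lower ones became 13322 without Ring1b, 11877 thinned and 13914 against MCAF1 alone. Adjoining higher 10-kb bins (28.5%) were 29.7% with 2-location reads added, 27.1%, 24.2% and 30.2% without REST, Ring1b and MCAF1, 26.9% for the unscaled sum, 26.7% at the doubled minimum, 40.4% at 1.5-fold, 19.98% at 3-fold, 21.9% thinned and 19.7% against MCAF1 alone. The minus-strand ratio of 1.90 was 1.87 with repeated positions kept, 1.95 with 2-location reads, 1.85, 1.85 and 1.87 without REST, Ring1b and MCAF1, 1.94 for the unscaled sum, 1.63 at 1.5-fold, 2.91 at 3-fold, 1.72 thinned and 1.86 against MCAF1 alone. The correlation at 100 kb, 0.149, was 0.113 without REST, 0.131 without MCAF1, 0.104 at the doubled minimum, 0.133 without a minimum, 0.0728 thinned and 0.106 against MCAF1 alone. The minus-strand ratio stayed above 1 in every setting run. Counts of called bins depend on depth: a bin of 500 bp averaged 0.622 REST and 0.614 Ring1b reads, so an absence of either factor there was not detectable.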
